A study of Mus musculus with 12 samples.

Results

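The replication-dependent histone genes lie in clusters and carry the symbols Hist1h, Hist2h, Hist3h and Hist4h in the mouse nomenclature used by the deposited table. Members were all rows whose symbol starts with one of these 4 prefixes, with the 1 row named as a pseudogene left out, and they numbered 69 of 45808 genes. They comprised 6 H1 linker histone genes, 20 H2A, 18 H2B, 12 H3 and 13 H4 core histone genes. By cluster, 56 belonged to Hist1 on chromosome 13, 10 to Hist2 on chromosome 3, 2 to Hist3 on chromosome 11 and 1 to Hist4 on chromosome 6. All 69 matched a gene of the GENCODE M21 annotation of the build GRCm38, which the submitters' processing notes also name. That annotation types Hist1h2aj and Hist1h2al as pseudogenes, although their symbols do not say so.

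The RNA came from the distal ileum of mice of the inbred BALB/c strain. The labels place 6 libraries in a control group given phosphate-buffered saline (PBS) and 6 in a group treated with Porphyromonas gingivalis (P. gingivalis), a bacterium of the mouth known for its part in gum disease. The labels name polyadenylated RNA and an Illumina TruSeq RNA kit. The sources used here give no age, sex, route, dose or duration and do not say that each library is a separate mouse, so p-values measure the spread between these samples, which may be technical. The question put to the histone genes was whether their RNA levels differed between the 2 treatments.

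Core histones form the spool around which DNA is wound, and H1 binds the linker between spools. Replication-dependent histone genes are transcribed mainly in S phase, when new DNA must be packaged, and in the intestine dividing cells sit in the crypts and in lymphoid follicles. Most of their mRNAs end not in a poly(A) tail but just after a conserved stem-loop, which the stem-loop binding protein Slbp holds during processing, export and translation. In libraries of polyadenylated RNA the counts therefore come from whatever fraction of these mRNAs was retained, and they do not measure the total histone mRNA.

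The stem-loop was searched for after the stop codon in every GENCODE M21 model of the members, on the sense strand, as GG, any 2 bases, CTTTT, any base, AG, any 2 bases and CC in a row. It was found in 44 of 69 members. The 8 sites that follow show the 6 different stem-loops and 2 cases of the same stem-loop in different classes. They are given 5′ to 3′ as DNA with the 16 bases of the stem-loop in capitals and 5 bases on each side, all in the annotated 3′ untranslated region.
Hist1h1c: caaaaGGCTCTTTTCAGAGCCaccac
Hist1h2be: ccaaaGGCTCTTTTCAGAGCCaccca
Hist1h2bb: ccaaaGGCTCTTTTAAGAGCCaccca
Hist1h3e: aaaacGGCTCTTTTAAGAGCCacctc
Hist2h2ac: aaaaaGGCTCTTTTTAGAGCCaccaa
Hist1h4d: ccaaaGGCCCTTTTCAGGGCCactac
Hist2h4: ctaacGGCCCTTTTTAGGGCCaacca
Hist1h4b: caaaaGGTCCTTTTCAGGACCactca

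The stem separated H4 from the other classes. The stem-loop printed for Hist1h1c and Hist1h2be was held by 26 members, namely 3 H1, 10 H2A, 8 H2B and 5 H3 genes. That printed for Hist1h2bb and Hist1h3e, which differs in the loop, was held by 6 members, 1 of H1, 2 of H2B and 3 of H3. The form of Hist2h2ac was found in that gene alone. The remaining 3 forms were found in H4 genes and in no other class, with 7 members holding the form of Hist1h4d, 2 that of Hist2h4 and 2 that of Hist1h4b. The stem-loop began 24 bases after the stop codon in Hist1h1c, 27 in Hist1h2bb, 36 in Hist1h4d and 33 in Hist1h4b. Some annotated models run on well past it, with 840 further bases in Hist1h1c and 1861 in Hist1h2be, against 23 in Hist1h2bb.

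Models were sorted by their 3′ ends, using the signal AATAAA within the last 50 bases of any annotated transcript as the mark of a polyadenylated end. A stem-loop without such a signal at an annotated end was held by 34 members, a poly(A) signal at an annotated end by 14, and 21 had neither. Some of the last, such as Hist1h2an and Hist2h2bb, are annotated only as far as the stop codon. A match or its absence describes the annotated model and not the RNA molecules that were sequenced.

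Promoters of 62 of the 69 members were matched in a RefSeq table of GRCm38.p6 that holds 300 bases per gene, 250 before and 50 after the start. Exact matches were counted for TATAAA (a form of the TATA box), CCAAT, ATTTGCAT (the octamer known from H2B promoters) and AAACACA (known from H1 promoters). Matches on either strand and anywhere in the window counted, and other forms of the TATA box were not searched for. TATAAA was present in 35 of 62 member promoters (56.5%) and in 13.6% of all 32851 promoters, and CCAAT in 53 of 62 (85.5%) against 37.4%. CCAAT was present in every H1, H2A, H2B and H3 promoter searched but in 3 of 12 H4 promoters. ATTTGCAT was present in 7 of 18 H2A and 6 of 16 H2B promoters and in no promoter of the other classes, 13 of 62 in all (20.97%) against 1.74% of all promoters. Some H2A and H2B genes start close together and have overlapping windows, so the same site can count for each, as in Hist1h2ae and Hist1h2bg. These counts are therefore of promoters and not of separate sites. AAACACA was present in 5 of 6 H1 promoters and 9 of 62 in all (14.5%), against 7.18%.

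The promoters of an H1, an H4 and an H2A gene are shown because their motifs differ and the levels of these genes are described further on. Each is in the direction of transcription in GRCm38.p6, with the matched motifs, on either strand, in capitals. Hist1h1c is on the plus strand at chr13:23738557-23738856 and Hist1h4d on the plus strand at chr13:23581318-23581617. Hist2h2ac is on the minus strand at chr3:96220831-96221130, and this window also holds the start of the H2B gene Hist2h2be, which runs the other way.
Hist1h1c: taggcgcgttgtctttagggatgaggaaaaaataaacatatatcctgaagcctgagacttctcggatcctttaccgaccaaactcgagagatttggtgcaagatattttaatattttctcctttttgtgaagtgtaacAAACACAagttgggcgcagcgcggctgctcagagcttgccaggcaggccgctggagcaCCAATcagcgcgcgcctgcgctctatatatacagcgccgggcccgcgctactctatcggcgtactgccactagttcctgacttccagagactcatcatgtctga
Hist1h4d: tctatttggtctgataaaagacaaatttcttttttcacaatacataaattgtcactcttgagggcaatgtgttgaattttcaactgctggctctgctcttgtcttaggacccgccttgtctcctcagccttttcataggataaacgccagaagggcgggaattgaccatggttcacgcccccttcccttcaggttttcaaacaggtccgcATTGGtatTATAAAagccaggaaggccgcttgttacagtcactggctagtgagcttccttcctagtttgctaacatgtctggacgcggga
Hist2h2ac: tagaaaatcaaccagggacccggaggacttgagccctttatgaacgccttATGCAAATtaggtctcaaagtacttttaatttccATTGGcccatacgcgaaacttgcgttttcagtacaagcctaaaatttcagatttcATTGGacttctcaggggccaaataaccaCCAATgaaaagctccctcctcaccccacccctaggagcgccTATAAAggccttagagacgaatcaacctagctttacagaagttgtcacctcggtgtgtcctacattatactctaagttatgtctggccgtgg
The H1 promoter held the CCAAT and H1 motifs. The H4 promoter held the TATA box and a reverse-strand CCAAT match. The H2A promoter held the TATA box, CCAAT matches on both strands and a reverse-strand octamer.

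In the libraries as a whole, the reads recovered from the deposited values numbered 6553306 to 10378841. Intestinal epithelial markers were abundant in every library, with a summed normalized count of 48578 to 101520 over 7 genes. Fabp6, a marker of ileal enterocytes, was low in 3 libraries (PBS replicate 6, P. gingivalis replicates 1 and 5). A list of 14 B cell genes had a summed normalized count of 148 to 1185 in PBS and 155 to 1316 after P. gingivalis. All 14 had a higher mean after P. gingivalis (median difference 0.70), as did the 5 tested T cell genes (0.53). The 7 smooth muscle genes (-0.52) and the 7 adipocyte genes (-4.38) all had a lower mean. No gene of these 4 lists was called, and the part of these cell types in the histone values was not tested. In bulk tissue, fewer cells of a type and less RNA per cell cannot be told apart. Values that follow are normalized counts, that is reads divided by a size factor per library, unless stated otherwise.

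Histone genes took 12549 to 20836 reads per library, between 0.163% and 0.269% of all reads. Between 63 and 66 of the 69 members had at least 1 read in a given library. An H2A gene and an H3 gene had no read in any library, for which 3 reads per library is the limit that a count of 0 allows for counting error, and Hist2h2aa1 and Hist1h2ba had 1 read each over all libraries. A mean normalized count of at least 10 was reached by 58 members, which were tested. Those left untested were Hist1h1t in H1, 5 genes in H2A, 4 in H2B and 1 in H3.

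Per kilobase of exon in GENCODE M21, levels of the tested members ran from 6.06 to 2845 with a median of 229.5. Hist2h2bb stood highest at 2845, followed by the H4 genes Hist1h4h at 1666, Hist1h4f at 1189 and Hist1h4d at 935, the linker gene Hist1h1c at 895, the H4 gene Hist1h4k at 834 and the linker gene Hist1h1b at 771. The order depends on the annotated length: per kilobase of coding sequence, Hist1h4d came first at 3443, followed by Hist2h2bb at 2867, Hist1h4h at 2535 and Hist1h1c at 2196. The value of Hist2h2bb is uncertain, since all of its 50-base stretches are shared with the overlapping antisense gene Gm20628 and it also overlaps Gm42743 on its own strand. As a share of the summed histone level, H4 genes took 26.4% to 30.9% in a library, H1 genes 25.2% to 29.4%, H2B genes 23.0% to 25.5%, H3 genes 10.6% to 12.4% and H2A genes 7.64% to 8.90%. These shares are of counts and follow transcript length and the retained fraction of each mRNA, so they are not shares of histone protein.

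Sequence identity limits single members. A median of 54.99% of a member's 50-base stretches also occurred in another annotated gene, on either strand and with overlapping genes included. More than 50% were shared in 36 members, and 4 members shared none, namely Hist1h1a, Hist1h1b, Hist1h1t and Hist2h2be. All stretches of Hist2h2aa1 occur in the overlapping antisense gene Gm20633, and all of those of Hist2h2aa2 in the overlapping antisense gene Gm20632. These 2 members were listed with means of 0.0900 and 19.1. The sources used here do not say how the authors' counting assigned reads from shared stretches. Part of the sharing comes from overlap on the genome, since 26 members overlap another gene, 7 of them on the same strand. The values of these 26 are uncertain too, because no strand setting is stated.

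No histone gene differed between P. gingivalis and PBS by limma with Benjamini-Hochberg adjustment at 0.05, and the same fit called 0 of 15025 genes (0%). At an unadjusted p under 0.05, 1 member was higher and 0 lower, against 3.73% of all genes in either direction. The quasi-likelihood test of edgeR on recovered reads called 0 members and 0 genes, and DESeq2 called 0 members and 28 genes. The mean log2 value was higher after P. gingivalis in 37 of 58 members and lower in 21, with a median difference of 0.05 on the log2(normalized count + 1) scale, against 48.9% higher and a median of -0.004 over all genes. On data simulated from these libraries, the fit recovered 88% of 100 genes changed 2-fold and 98% of 100 changed 4-fold, so the smaller differences seen here were below what that check covers.

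The summed level over the 69 members was 14878, 21251, 17046, 13504, 14037 and 14511 in PBS replicates 1 to 6. After P. gingivalis it was 16347, 15227, 16681, 15005, 16143 and 14662. The means were 15871 ± 2903 (SD, n = 6) in PBS and 15677 ± 820 (SD, n = 6) after P. gingivalis, a difference of -0.001 on the log2 scale. The P. gingivalis libraries all lay within the range of the PBS libraries, with or without PBS replicate 2, which set the top of that range. Without that library the PBS mean was 14795 ± 1360 (SD, n = 5).

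**Figure D1:**
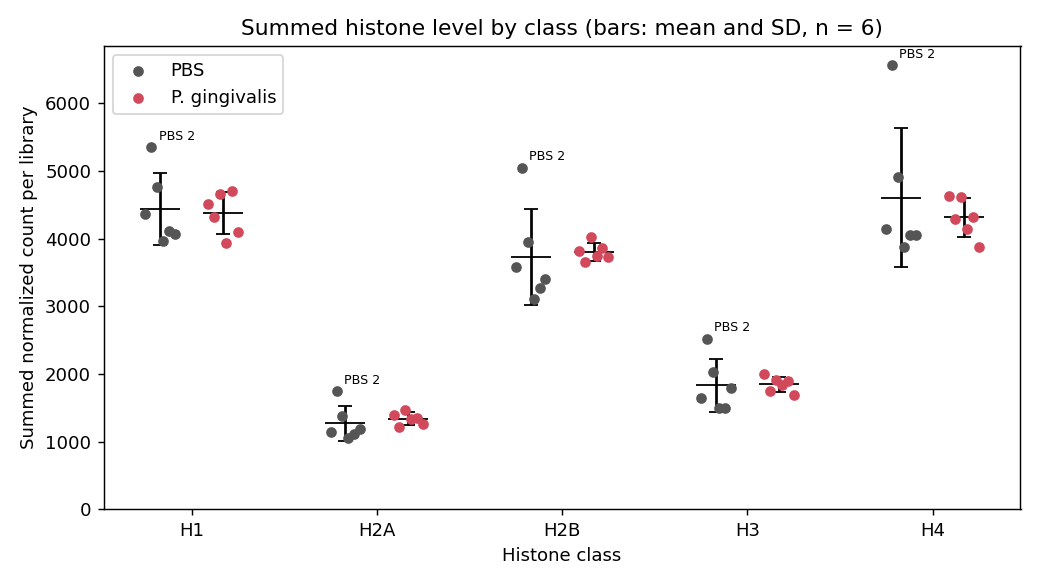
Summed normalized count of each histone class (horizontal axis) per library (points), with the mean and SD of each group of 6 as bars. In each of the 5 classes PBS replicate 2 is the highest point, at 5359 for H1, 1744 for H2A, 5051 for H2B, 2524 for H3 and 6572 for H4.

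Linker histones H1 bind where DNA enters and leaves the nucleosome and were among the most abundant members. Hist1h1c ranged from 1365 to 1544 with a median of 1452 in PBS, and from 1081 to 1622 with a median of 1339 after P. gingivalis. The difference was -0.12 (SE 0.10, limma adjusted p = 0.992), and the P. gingivalis range enclosed the PBS range. Hist1h1e had a mean of 1241 ± 193 in PBS and 1179 ± 116 after P. gingivalis. Hist1h1d had 740 ± 123 and 773 ± 88.4, Hist1h1b 558 ± 90.3 and 588 ± 72.8, and Hist1h1a 448 ± 104 and 491 ± 60.7 (SD, n = 6 each). Of the 5 tested H1 genes, 3 had a higher and 2 a lower mean, with a median difference of 0.07. Hist1h1t, the testis-specific linker gene, had 17 reads in all libraries together and was not tested.

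H2A and H2B pair with each other in the nucleosome. In H2A, 13 of 15 tested genes had a higher mean after P. gingivalis and 2 a lower one, with a median of 0.15. The genes with the smallest p were Hist1h2an, Hist1h2ad, Hist1h2ag and Hist1h2ae. Hist1h2an, at chr13:21786826-21787218 on the minus strand, was between 8.65 and 17.639 in PBS with a median of 12.3, and between 17.647 and 27.4 after P. gingivalis with a median of 21.1. The ranges of the 2 groups met without overlapping, and it was the 1 of 58 members for which that held, against 0.166% of all genes. Its means were 13.2 ± 3.48 and 21.7 ± 3.49 (SD, n = 6). The difference was 0.69 (SE 0.20), with an unadjusted limma p of 0.00369 and a limma adjusted p of 0.669. This gene is weakly counted, with 209 reads over all libraries, and 85.8% of its 50-base stretches occur in other genes, with 80.5% of all its stretches found in Hist1h2ah.

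The other H2A genes overlapped between the groups. Hist1h2ad was 44.3 to 88.2 in PBS and 58.6 to 90.8 after P. gingivalis, a difference of 0.27 (SE 0.17). Hist1h2ag was 29.2 to 69.5 and 44.2 to 61.8, a difference of 0.31 (SE 0.20), and Hist1h2ae was 39.4 to 64.3 and 53.8 to 75.6, a difference of 0.23 (SE 0.15). Limma's adjusted p was 0.992 for each of these 3. Hist1h2al, the H2A row with the highest mean count, had 253 ± 51.8 in PBS and 259 ± 33.8 after P. gingivalis. It is typed as a processed pseudogene at chr13:51202727-51203065, apart from the other Hist1 genes, and 67.6% of its 50-base stretches occur elsewhere, so its reads may belong to other genes. Hist3h2a, of the Hist3 cluster at chr11:58954685-58956830, had 31.0 ± 5.35 and 32.1 ± 1.91 (SD, n = 6), and Trim17, which it overlaps, holds 31.5% of its 50-base stretches.

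In H2B, 11 of 14 tested genes had a higher and 3 a lower mean, with a median of 0.07. Hist2h2bb ranged from 834 to 1547 in PBS with a median of 975, and from 983 to 1175 after P. gingivalis with a median of 1123. The P. gingivalis values fell inside the PBS range, and the difference was 0.09 (SE 0.13, limma adjusted p = 0.992). Hist1h2bc, at chr13:23684199-23692908, had 724 ± 106 in PBS and 688 ± 100 after P. gingivalis (SD, n = 6). The H2B differences ran from -0.09 in Hist1h2bq to 0.20 in Hist1h2bn.

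H3 and H4 form the tetramer at the core of the nucleosome. In H3, 7 of 11 tested genes had a higher and 4 a lower mean, with a median of 0.04. Hist1h3e, the H3 gene with the highest mean, had 420 ± 109 in PBS and 398 ± 32.9 after P. gingivalis (SD, n = 6). Hist2h3c2, a weakly counted H3 gene, was 7.14 to 16.3 in PBS and 5.42 to 10.3 after P. gingivalis, with a difference of -0.44 (SE 0.24) and a limma adjusted p of 0.992. It passed the minimum mean of 10 only through the PBS group, where it was higher, and fell below that minimum without PBS replicate 2. Gm20634 holds 63.5% of its 50-base stretches.

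In H4, 3 of 13 genes had a higher mean and 10 a lower one, with a median of -0.06. This direction rested on PBS replicate 2, without which 8 of 13 H4 genes had a higher mean and the median was 0.03. Hist1h4c was 270 to 443 in PBS with a median of 318, and 228 to 318 after P. gingivalis with a median of 283, and the difference was -0.26 (SE 0.13, limma adjusted p = 0.992). The 2 groups overlapped from 270 to 318. Hist1h4d had 1108 ± 258 in PBS and 1020 ± 89.4 after P. gingivalis, Hist1h4h 825 ± 206 and 741 ± 66.5, and Hist1h4b 117 ± 23.6 and 103 ± 11.7. Hist4h4, the single gene of the Hist4 cluster at chr6:136801553-136804415, had 545 ± 122 and 534 ± 25.6 (SD, n = 6 each). Whether H4 differed from H2A in its response was not tested.

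**Figure D2:**
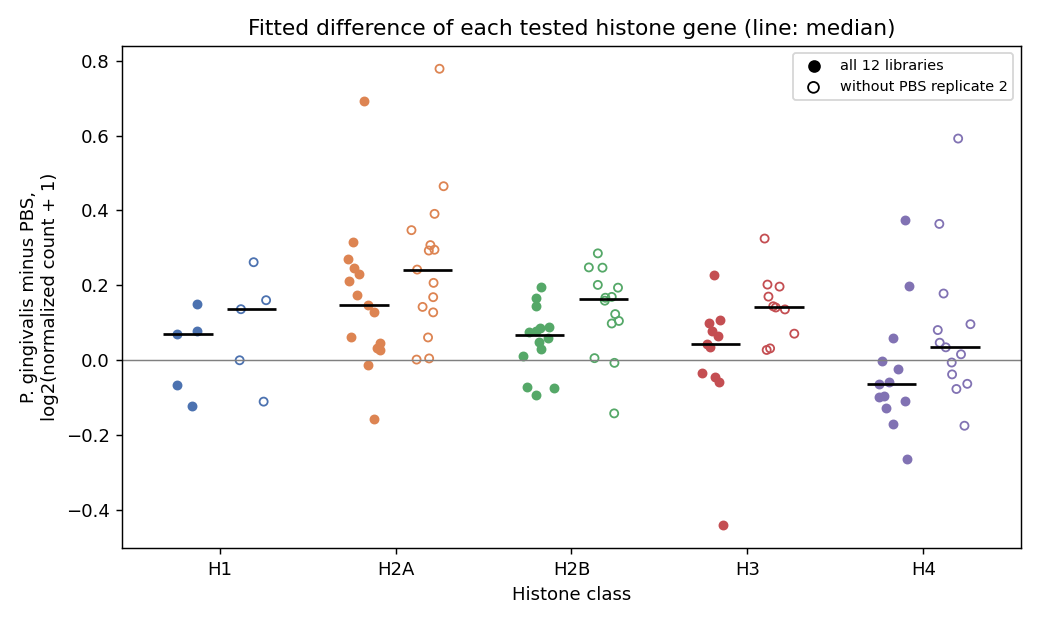
Fitted difference of each tested histone gene (P. gingivalis minus PBS, log2 of normalized count + 1) by class, filled for all 12 libraries and open without PBS replicate 2, with medians as lines. With all libraries the medians run from -0.06 in H4 to 0.15 in H2A. Without PBS replicate 2 they run from 0.03 in H4 to 0.24 in H2A, all above 0. That library was left out because it was high in most members, which by itself raises these differences.

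PBS replicate 2 was the highest of the 12 libraries in 43 of 58 tested members (74.1%), while it was the highest in 14.5% of all tested genes. A member's level in that library was a median of 1.47 times its mean in the other 5 PBS libraries, against 0.989 over all genes. Histone reads made up 0.269% of that library (exact 95% interval 0.265% to 0.273%, for counting error only). The library was singled out after its values were seen, so these figures describe it and are not tested.

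**Figure D3:**
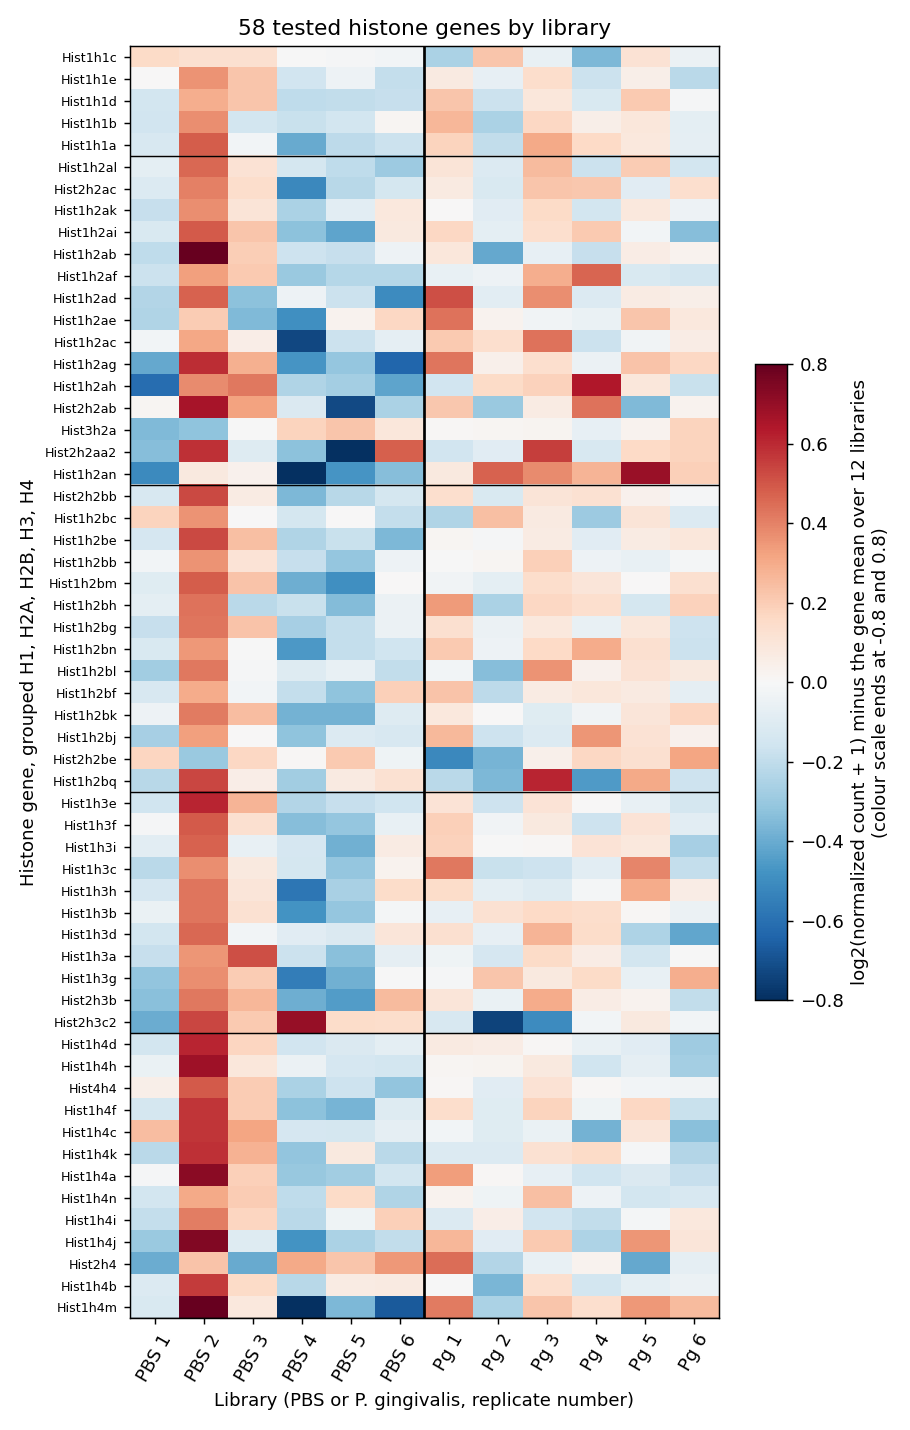
Each of the 58 tested histone genes (vertical axis, by class) in each of the 12 libraries (horizontal axis), as log2(normalized count + 1) minus the gene's mean over libraries. The column of PBS replicate 2 is red in nearly every gene and is the highest library in 43 of them.

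The excess reached every class and differed among members. The median ratio of PBS replicate 2 to the mean of the other 5 PBS libraries was 1.30 in H1, 1.49 in H2A, 1.45 in H2B, 1.47 in H3 and 1.57 in H4. Hist1h4m had the highest ratio, at 37.4 in that library against 9.62 to 20.8 in the other PBS libraries. Hist1h4j was at 245 there and 105 to 136 in the other PBS libraries, and Hist1h2ab at 136 against 63.5 to 84.3. At the other end, the ratio was 0.751 for Hist2h2be, 0.772 for Hist3h2a, 1.05 for Hist1h1c and 1.13 for Hist2h4. All 4 of these last genes have an AATAAA signal at an annotated end.

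Members with such a signal had a lower median ratio, 1.29 over 9 tested genes, with a range of 0.751 to 2.0. The ratio was 1.47 over the 31 with a stem-loop and no poly(A) signal, with a range of 1.27 to 2.48. It was also 1.47 over the 18 with neither, with a range of 1.31 to 1.73. PBS replicate 2 was the highest library in 3 of 9, 25 of 31 and 15 of 18 of them, in that order. The grouping by 3′ end was not tested. Hist1h4j, Hist1h4a, Hist1h2bq and Hist4h4 carry the signal with ratios of 2.0, 1.77, 1.54 and 1.49, each above 1.47.

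**Figure D4:**
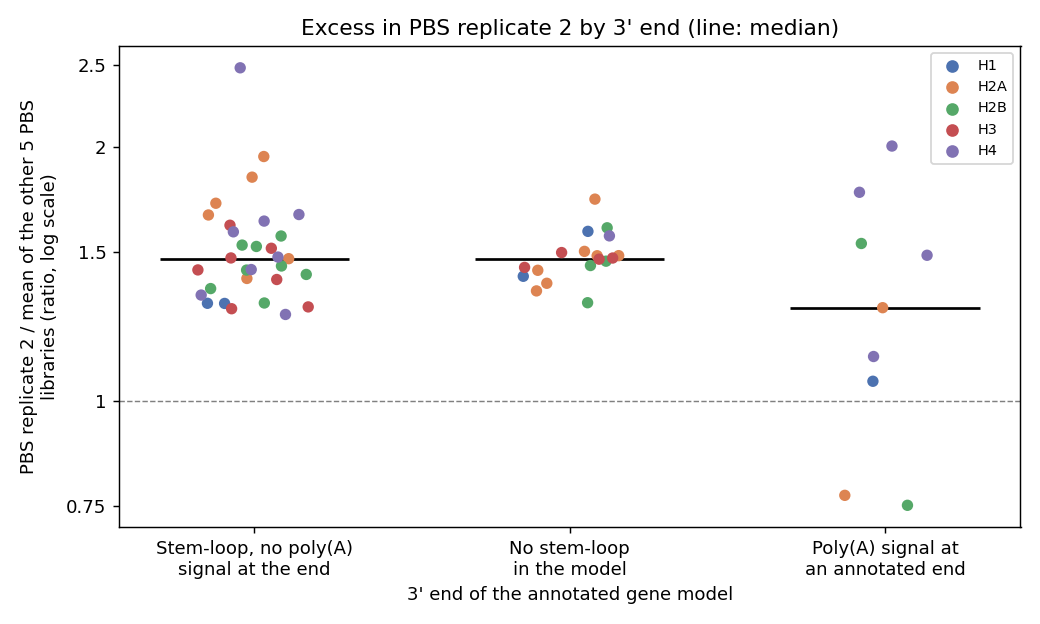
Ratio of PBS replicate 2 to the mean of the other 5 PBS libraries (log axis) for each tested member (points, coloured by class), grouped by the 3′ end of its gene model, with medians as lines. Only 2 points lie below 1, Hist2h2be at 0.751 and Hist3h2a at 0.772, both in the group with a poly(A) signal.

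Other gene lists are given beside the histone level of PBS replicate 2. Of 15 tested genes for RNAs that lack a poly(A) tail (such as Rn7sk, Rmrp and Rpph1), 11 were highest in that library. The list's mean stood 0.95 above its average over libraries on the log2 scale, and the histone genes stood 0.43 above. In P. gingivalis replicate 4 the same list stood at 0.64, with the histone genes at 0.01, but only 2 of the 15 were highest there. The 18S rRNA row Rn18s-rs5 took 4.60% of the reads of that library, against 0.629% in P. gingivalis replicate 2, the next highest. The list's mean in P. gingivalis replicate 4 may therefore rest largely on that 1 row, and it does not show a rise of the list as a whole. The 42 S phase genes stood at -0.13 in PBS replicate 2, their lowest library, and 15 of them had their lowest value there. The 18 mitosis genes stood at 0.03. The 14 B cell genes stood at -1.34, within the range of the other libraries, of which PBS replicate 4 was lowest at -1.51. The ratio of the summed histone level to the summed S phase level was 2.80 in PBS replicate 2 and 1.53 to 2.08 in the other 11 libraries. The part of any of these in the histone level was not tested.

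**Figure D5:**
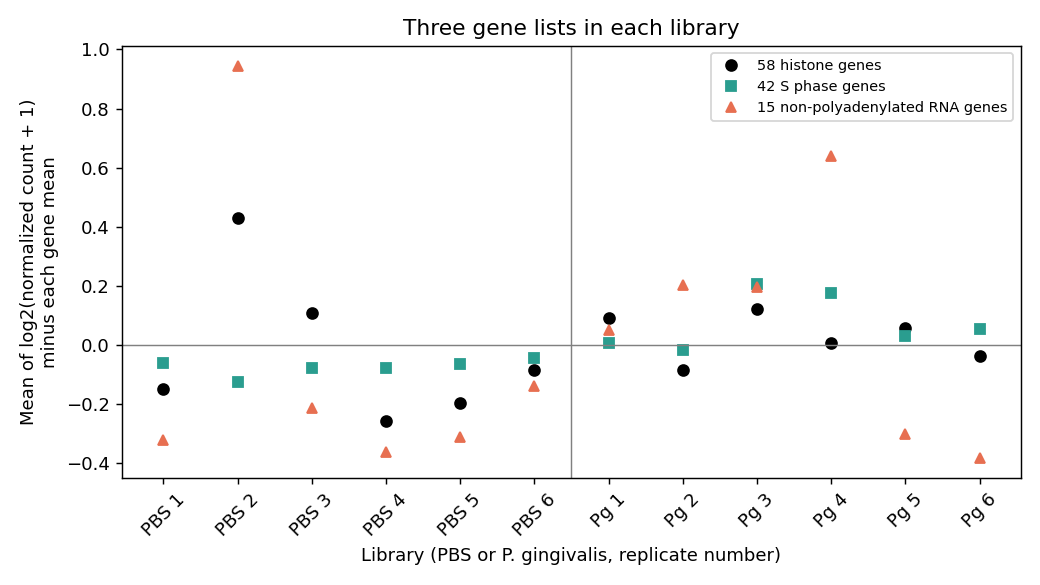
Mean of log2(normalized count + 1) minus each gene's mean, per library, for 58 histone, 42 S phase and 15 non-polyadenylated RNA genes. In PBS replicate 2 the histone genes are at 0.43 and the non-polyadenylated RNAs at 0.95 while the S phase genes are at -0.13. In P. gingivalis replicate 4 the non-polyadenylated RNAs are at 0.64 with histones at 0.01, and 2 of the 15 are highest there. The 18S rRNA row took 4.60% of the reads of that library, so this mean may rest largely on 1 row.

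PBS replicate 2 also set the spread of the controls. The median SD of a member on the log2 scale was 0.31 over the 6 PBS libraries, 0.20 over the 5 left without replicate 2 and 0.17 over the P. gingivalis libraries. Without that library, 48 of 57 tested members had a higher mean after P. gingivalis and 9 a lower one, with a median of 0.14. No member passed in that fit by limma, with a lowest adjusted p of 0.721 (Hist1h2an). At an unadjusted p under 0.05, 10 members were higher and 0 lower, against 1.43% of all genes higher. Those 10 were Hist1h2an, Hist1h2ag and Hist1h2ad of H2A, Hist1h4j and Hist1h4m of H4, Hist1h2bn, Hist2h2bb and Hist1h2bh of H2B, Hist1h1a of H1 and Hist1h3g of H3. Hist1h1a was then 408 ± 38.7 (SD, n = 5) in PBS and 491 ± 60.7 (SD, n = 6) after P. gingivalis, a difference of 0.26 (SE 0.10). Hist1h4j was 122 ± 11.6 and 158 ± 24.4, a difference of 0.36 (SE 0.12). The count of members at that threshold thus moved from 1 to 10 with this 1 library. Because the library was left out for its high histone values, its removal lowers the PBS means of most members by construction. Members are also read from the same libraries and many share sequence, so they are not independent. The count of 10 therefore describes the weight of this library and is not support for a difference between treatments.

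Members differed in how closely they followed the summed histone level, a sum that contains each of them and is read from the same libraries. Spearman's rho between a member and the summed histone level over 12 libraries was highest for Hist1h4f at 0.96, Hist1h1d at 0.92 and Hist1h3e at 0.91. It was lowest for Hist3h2a at -0.63, Hist2h2be at -0.34 and Hist2h4 at -0.26. Among genes that are no members, the 5 most like the summed level were Hn1 and Mrpl47 at 0.93, Pmf1 at 0.90 and Bzw2 and Fam136a at 0.89. These were picked as the most alike of all tested genes and are a description only.

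An H2A and an H2B gene started head to head in 13 pairs, 176 to 306 bases apart, and the partners had like levels in some pairs and not in others. Hist1h2ak and Hist1h2bn stood at 464 and 419 per kilobase. Hist1h2ac and Hist1h2bc, whose starts are 251 bases apart, stood at 20.5 and 611. Hist2h2ac and Hist2h2be, whose shared promoter is printed above, start 239 bases apart and stood at 437 and 21.8. The size of these gaps depends on the annotated length, since per kilobase of coding sequence the first pair stood at 131 and 1867 and the second at 587 and 151. In PBS replicate 2 Hist2h2ac was at 297, its highest library, while Hist2h2be was at 45.7, its lowest PBS library. Pearson's r between these partners on the log2 scale over 12 libraries was -0.11, against 0.72 for Hist1h2ag and Hist1h2bj.

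The factors that make histone mRNA were compared by a list of 22 processing genes, of which 17 had a higher mean after P. gingivalis and 0 were called, with a median of 0.05. Slbp, the stem-loop binding protein, had 342 ± 26.8 in PBS and 347 ± 24.9 after P. gingivalis (SD, n = 6). Npat, the cyclin E-dependent activator of histone transcription, had 240.0 ± 21.7 and 240.4 ± 30.5. The members of the list with the smallest p were Cstf2, a cleavage stimulation factor, at 0.16 (SE 0.07), and Ncbp1, a cap-binding protein, at 0.13 (SE 0.06). Limma's adjusted p was 0.992 for both.

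Chaperones that carry histones to DNA had a higher mean in 16 of 23 genes, with 0 called and a median of 0.07. Hira, the H3.3 chaperone, differed by 0.27 (SE 0.10), Mcm2, a helicase subunit that also binds histones, by 0.22 (SE 0.11) and Chaf1a, the large subunit of the CAF-1 complex, by 0.20 (SE 0.13), with a limma adjusted p of 0.992 for each. Variant histones, which are mostly replication-independent with polyadenylated mRNAs, although H2afx is known to make a stem-loop mRNA as well, were split evenly, with 5 of 10 tested genes higher, 0 called and a median of -0.001. H2afz had 671 ± 97.5 in PBS and 695 ± 56.6 after P. gingivalis, H2afx differed by 0.14 (SE 0.09), H2afy by 0.08 (SE 0.06), H3f3a by -0.04 (SE 0.11), H3f3b by -0.15 (SE 0.12) and the linker variant H1f0 by -0.09 (SE 0.09). In PBS replicate 2, 5 of the 10 were highest.

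Of 42 S phase genes, 36 had a higher mean after P. gingivalis and 0 were called, with a median of 0.15. At an unadjusted p under 0.05, 8 were higher, against 1.57% of all genes, and 3 did not overlap between the groups, against 0.166%. Without PBS replicate 2, the library lowest for this list, 5 were higher at that threshold, against 1.43% of all genes. In that fit 38 of the 42 had a higher mean. The summed S phase level was 7581 to 8276 in PBS and 8400 to 9825 after P. gingivalis, without overlap. Mcm3, part of the replicative helicase, differed by 0.41 (limma adjusted p = 0.446) and Hells, a chromatin remodeller, by 0.31 (limma adjusted p = 0.455). Pcna, the sliding clamp, had 597 ± 51.2 in PBS and 663 ± 69.2 after P. gingivalis. Of 18 mitosis genes, 14 had a higher mean, 0 were called and the median was 0.12. The checkpoint kinase Bub1 differed by 0.28 (SE 0.12) and its relative Bub1b by 0.18 (SE 0.09), and the proliferation marker Mki67 had 1804 ± 122 and 2091 ± 362 (SD, n = 6). Whether the histone genes followed the S phase genes was not tested, and PBS replicate 2, the highest library for histones, was the lowest for the S phase list.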

How the data were processed

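Polyadenylated RNA, per the labels, was sequenced from 12 distal ileal samples, 6 PBS and 6 P. gingivalis. The deposited table holds a signal per gene, namely the authors' read counts after division by 1 size factor for each library, as its name and values show. FastQC, HISAT2, Cufflinks, DESeq2 and the build GRCm38 (mm10) were used, per the submitters' processing notes. The counting method, strand setting and annotation were not given in the sources used here. The values were whole multiples of 1 step per library, which gave whole reads for 100% of values within 0.001 reads. No library copied another: every pair had a chi-square of at least 6.54 per degree of freedom.

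The comparison used limma-trend (limma 3.58.1, R 4.3.3) of log2(normalized count + 1) for the 15025 genes with a mean of at least 10, two-sided, with Benjamini-Hochberg adjustment at 0.05 over all of them. The pseudocount makes differences understate the change of weakly counted genes. The same steps were tested on simulated data. edgeR 4.0.16 and DESeq2 1.42.0 on the recovered reads were alternatives, beside other pseudocounts, filters, scalings, sample weights, a replicate block, left-out libraries and covariates. A covariate of non-polyadenylated RNAs was chosen after seeing the data.

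The members and lists were chosen with earlier results of these data known. Text names members past the threshold, the 10 with the highest mean, the 4 with the smallest p in each direction, the highest of each class and cluster, 10 fixed related genes, the 2 with the smallest p of each of 5 related lists, and the 5 genes most like the summed level. Members named for their ratio in PBS replicate 2, for their level per kilobase, as head-to-head partners or in the fit without that library were chosen after their values were seen. Stem-loops and shared 50-base stretches were read from GENCODE M21 transcripts, and promoters from RefSeq.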

Additional observations from a re-analysis of the deposited data

Results flagged for a closer look

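In 60 sets of 6 libraries (each named member and sum, in each group), the highest or lowest library was checked for a gap to the rest that is wide for the group's range, which chance gives in about 1 of 20 sets. It was found in 5 sets. In PBS, replicate 2 stood apart for Hist1h4d at 1601 (the others 945 to 1185), for Hist1h4h at 1236 (699 to 821), for Hist1h1b at 735 (503 to 575) and for Hist1h1a at 648 (350 to 456). After P. gingivalis, replicate 6 stood apart for Hist3h2a at 35.7 (29.9 to 32.0). These 4 high values in PBS come from 1 library and are not independent of each other.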

How the results depend on the processing

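No histone gene was called under any of the alternatives run, and the median member difference ran from -0.002 (without PBS replicate 5) to 0.14 (without PBS replicate 2). Over all genes, 1 was called with a pseudocount of 5, 20 with sample weights, 28 with DESeq2, 1 without the libraries low in Fabp6, and 0 to 53 when 1 library was left out (53 without P. gingivalis replicate 6, 7 without PBS replicate 5, and 1 each without PBS replicate 6 and P. gingivalis replicate 2). The cause of these was not tested. With the replicate number as a block, 0 members and 0 genes were called and the median member difference was 0.05. Same-numbered libraries correlated at -0.54 to 0.08, and no library correlated best with its own number. No pairing by number was visible, although such correlations cannot exclude one.

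Several uncalled differences changed sign, and the cause was not tested. TMM scaling gave Slbp -0.0066. Upper-quartile scaling gave Hist4h4 0.0052 and Npat 0.0054. Sample weights gave Hist4h4 0.046, Hist1h3e 0.028, Hist3h2a -0.0043, H3f3a 0.0032 and Npat 0.016, and Npat was 0.012 with edgeR and 0.0027 with DESeq2. Without the libraries low in Fabp6, Hist1h1d was -0.049 and Hist1h2al -0.074. Hist4h4 was 0.018 without the libraries high in 18S rRNA and 0.017 with the B cell list as a covariate. With the S phase list as a covariate, Hist1h1c was 0.059, Hist1h4d 0.035, Hist1h4h 0.0017 and Hist1h2bc 0.084. In the same fit Hist4h4 was 0.030, Slbp -0.027, Chaf1a -0.068 and Mcm2 -0.042. That covariate did not overlap between the groups, with a mean log2 level of 7.175 to 7.256 in PBS and 7.284 to 7.508 after P. gingivalis. It therefore cannot be separated from the treatment, and these sign changes cannot be read. With 1 library left out, Hist4h4 ran from -0.065 to 0.096, Npat from -0.058 to 0.039, Slbp from -0.013 to 0.043, Hist1h3e from -0.099 to 0.070, Hist3h2a from -0.0031 to 0.11, H3f3a from -0.087 to 0.034, Hist1h4d from -0.14 to 0.015 and Hist1h2al from -0.0083 to 0.14. With the non-polyadenylated list as a covariate, chosen after seeing the data, 30 of 58 members had a higher mean, with a median of 0.003. With a minimum mean of 1, 65 members were tested and 0 called.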
